A study of Mus musculus with 7 samples.

Results

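The genes of oxidative phosphorylation were compared between mature and immature bone marrow-derived dendritic cells (BMDCs) of the mouse. The members were the genes that the deposited table assigns to the KEGG pathway of oxidative phosphorylation, leaving out the V-type ATPase, a proton pump of lysosomes and other compartments that shares the KEGG entry. This gave 105 of 28666 genes, after 23 V-type ATPase genes were left out of 128. Cox6a2 and Cox7a1, the muscle forms of 2 complex IV subunits, were treated apart, which left 103 members, 90 of them nuclear and 13 encoded by mitochondrial DNA. A filter on low counts kept 101 of the 103, and Cox4i2 and Atp4b, with 0 counts in 6 and in all 7 libraries, were not tested.

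Marrow of female C57BL/6 mice aged 6 to 8 weeks was grown into BMDCs with GM-CSF and IL-4 over 7 days. The cells shared medium with MC38 colon carcinoma cells across a Transwell membrane, under 24 h of the glutamine antagonist DON at 5 uM. In its co-cultures the paper paired DON with added glutamine, and for the sorted cells the glutamine level is not stated separately. Flow sorting then separated the mature from the immature cells, with 4 libraries of mature and 3 libraries of immature BMDCs. No difference in genotype or host between the groups is stated, the sort markers are not given in the sources used here, and DMSO is named as well as DON in a legend that assigns neither to a library. The study's methods speak of independent biological experiments in general, but no source used here ties these replicates to separate mice or cultures, so p values may measure only the spread between these samples, which may be technical.

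In oxidative phosphorylation, complexes I and II pass electrons from NADH and succinate to coenzyme Q, complex III passes them to cytochrome c, and complex IV passes them to oxygen. Complexes I, III and IV pump protons across the inner mitochondrial membrane, and complex V, the ATP synthase, makes ATP as the protons flow back. All subunits of complex II are nuclear, whereas the other complexes combine nuclear subunits with subunits encoded by mitochondrial DNA. In dendritic cells, activation by microbial ligands is known to shift metabolism towards glycolysis, while resting cells rely more on respiration.

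Total counts were 54846746 to 67973086 per library. Levels are in CPM (counts relative to the TMM-normalized total of their library), and tests are edgeR's quasi-likelihood test on all genes with p values adjusted by the Benjamini-Hochberg method (adjusted p under 0.05). All 7 markers of mature DCs, such as Cd80, Cd86 and Ccr7, were higher in the mature libraries. Elsewhere the paper gates mature DCs by CD80 and CD86, so the rise of Cd80 and Cd86 may follow from the sort itself. Of 8 general DC genes 4 were higher and 2 lower, and Itgax and Cd74 were abundant in all libraries, while all 7 macrophage markers were lower in mature cells, at a summed 275 to 322 CPM against 1592 to 1678 CPM. In these bulk samples, fewer cells of a type and less RNA per cell cannot be told apart.

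A pair of features of the mature libraries touched the results below. Mature replicate 3 stood apart, with higher counts for short transcripts. Its log2 ratio to the other mature libraries had a Spearman correlation across genes of -0.42 with transcript length, against 0.22 to 0.33 for the other mature libraries, as a description with no test. The nuclear members had a median transcript length of 944.5 bases, against 2594.5 bases for all genes tested. A summed level of 848 to 1004 CPM was reached by 15 heart muscle genes in mature replicates 2, 3 and 4, against 28.6 CPM in mature replicate 1 and 6.64 to 8.17 CPM in immature libraries. In mature replicate 1, most of the 28.6 CPM came from Tnni3, and the defining markers Myh6 and Myl2 were under 1 CPM. Results are therefore given with all 7 libraries, without mature replicate 3, and where needed in mature replicate 1 alone.

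With all 7 libraries, the pathway did not move one way. Among 101 tested members 12 were higher and 16 lower in mature BMDCs, while 23.2% of all genes tested were higher and 22.9% lower, so the members' shares, 11.9% and 15.8%, were below this background. The median log2 fold change of the members was -0.0066, against 0.055 for all genes tested. Scaling by library totals alone gave 17 higher and 14 lower and moved the median of all genes to 0.16. Only 4 members passed both criteria, the adjusted p and a log2 fold change of 1 or more in either direction, against 23.1% of all genes tested. These were Uqcrh, Cox8b, Cox6b2 and Atp4a, all higher in mature cells. Of these, only Uqcrh was well above the detection limit. Cox8b and Atp4a had few or no immature counts and passed the filter through mature libraries, so their direction was set beforehand. The number of higher members fell to 7, 5 and 6 without immature replicates 1, 2 and 3 and to 7 without mature replicate 4, and 2 members passed both criteria without immature replicate 2, mature replicate 2 or mature replicate 4.

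Without mature replicate 3, 45 of 100 tested members were lower and 15 higher, where 28.3% of all genes tested were lower and 29.1% higher. The median log2 fold change was then -0.22, against 0.042 for all genes. Every one of the 16 members lower with all 7 libraries was among these 45, and 10 of the 12 higher members stayed higher. In this fit 3 members passed both criteria, against 23.6% of all genes, Atp4a upwards and the complex I subunits Ndufa12 and Ndufc1 downwards. Mature replicate 1 alone against the immature libraries gave 44 lower and 11 higher members of 100, with a background of 22.5% lower and 20.2% higher, and 7 members passed both criteria, against 19.3% of all genes, in a fit where the lone library is assumed to vary like the others. In that library Myh6 and Myl2 were under 1 CPM. This fit and the one without mature replicate 3 share mature replicate 1 and all immature libraries, so their results are not independent. An offset for transcript length with all 7 libraries gave 32 lower and 12 higher members, where 25.3% and 26.6% of all genes were lower and higher.

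**Figure D1:**
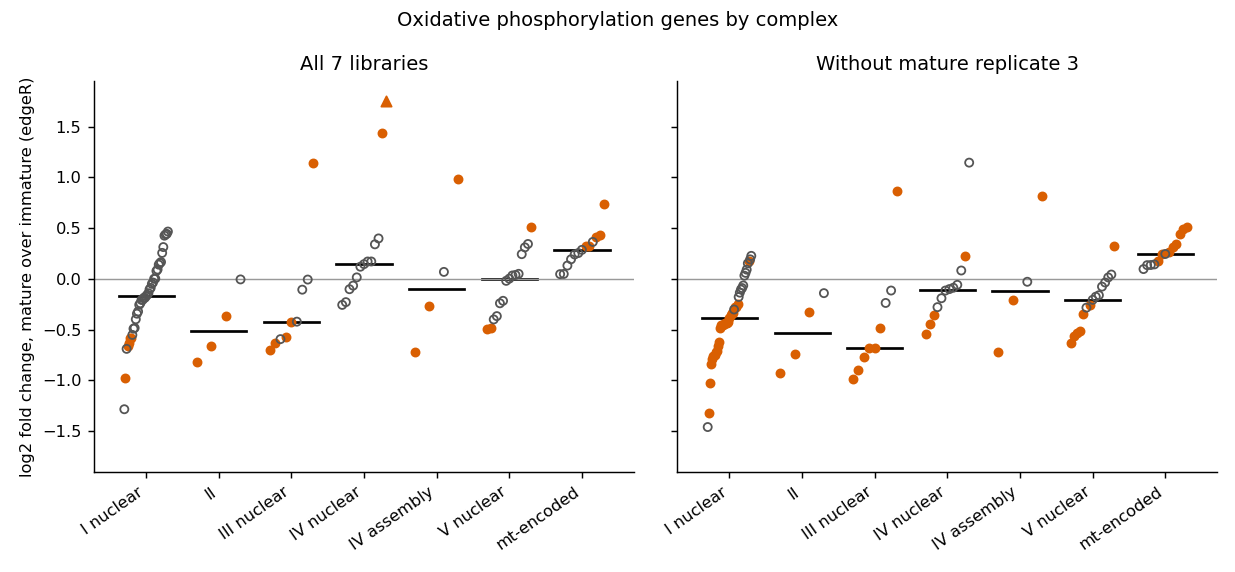
Each point is the log2 fold change (mature over immature BMDCs, edgeR) of one member, by complex, with all 7 libraries on the left and without mature replicate 3 on the right. Filled points passed an adjusted p of 0.05, open points did not, the triangle is Cox8b at 5.76, drawn at the axis limit, bars are medians, and the members outside the complexes are not drawn. The median of nuclear complex I was -0.17 on the left and -0.38 on the right, and all 13 mitochondrially encoded members lie above 0 in both panels.

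Counts differed by the genome of origin. These counts and those by complex below are to be read against all genes tested. Of these, 22.9% were lower and 23.2% higher with all 7 libraries, and 28.3% and 29.1% without mature replicate 3. Of the 88 tested nuclear members, 7 were higher and 16 lower with all 7 libraries (median log2 fold change -0.10), and 7 were higher and 45 lower of 87 without mature replicate 3 (median -0.28). Of the 13 mitochondrially encoded members, 5 were higher and none lower (median 0.29), and 8 were higher and none lower without mature replicate 3 (median 0.25). Nuclear members were highest among the mature libraries in mature replicate 3 in 82 of 88 cases, with a median log2 ratio of 0.76 over the mean of mature replicates 1, 2 and 4, against 0.014 for all genes. Relative to the mean of the immature libraries, the median log2 ratio of the nuclear members was -0.37, -0.27, 0.37 and -0.21 in mature replicates 1 to 4. It was 0.12, 0.28, 0.41 and 0.30 for the mitochondrially encoded members, so these were above the immature mean in each mature library. Without mature replicate 3, every mature library was below every immature one for 53 of 87 nuclear members and above for 9, where 32.9% and 32.2% of all genes were.

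**Figure D2:**
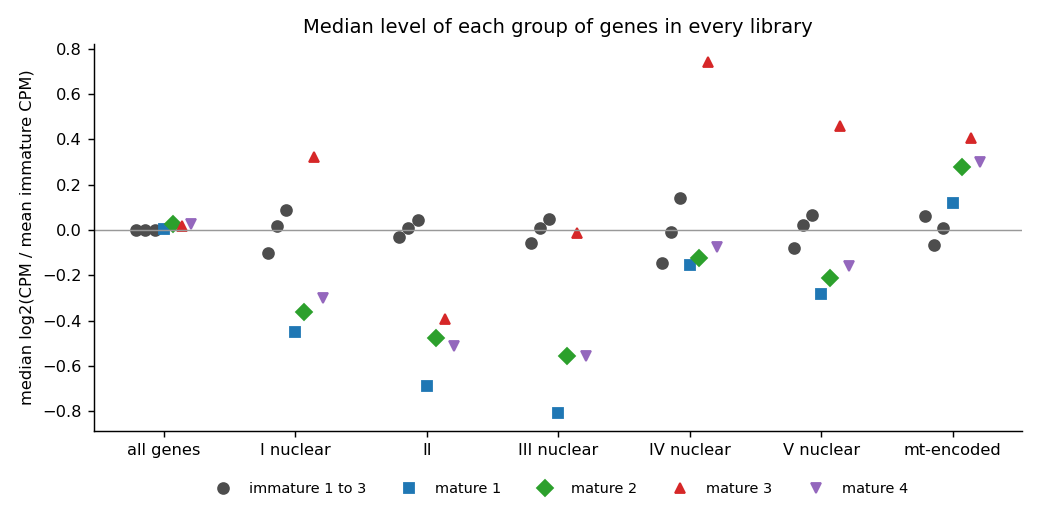
Each symbol is the median over a group of genes of log2(CPM over the mean immature CPM) in one library, for all genes tested, the nuclear members of each complex and the mitochondrially encoded members. Mature replicates 1, 2 and 4 lie below 0 for each of the 5 complexes and mature replicate 3 lies above 0 for complexes I, IV and V, while the medians of all genes stay within 0.026 of 0.

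The promoters of 72 of 90 nuclear members were matched in RefSeq on GRCm38.p6, each window running from 250 bases before the start to 50 after it. NRF1, a factor known to bind many nuclear genes of mitochondria, has a near-palindromic consensus of 10 letters with one free position, searched on both strands. It was present in 18 of the 72 (25.0%), against 10.3% of the 11564 tested genes with a window. TCAAGGTCA, for estrogen-related receptors, was in 2 of 72 (2.78% against 0.355%), CCGGAAGTG, for ETS factors such as GABP, in 4 (5.56% against 4.44%), and the 11-letter core of the YY1 consensus in 5 (6.94% against 1.59%). Matches of different motifs did not overlap in any member. Among the 38 matched members lower without mature replicate 3, 10 (26.3%) held the NRF1 letters, a share close to that of all 72, and all 5 matches of the YY1 letters were among these 38 (13.2%). A match is a description of letters, not a bound site. The 140 bases before the start of 4 members are shown, as examples of a member lower in each fit (Sdha), of members that differed in direction (Cox6a1 and Atp5g2) and of the nuclear subunit that rose most among those above 10 CPM (Uqcrh). Capitals mark the NRF1 letters in the first 3 and the CCGGAAGTG letters, on the opposite strand, in Uqcrh. All 4 genes lie on the minus strand, with the windows at chr13:74350241-74350380, chr5:115348959-115349098, chr15:102671048-102671187 and chr4:116075071-116075210 in this order.
Sdha: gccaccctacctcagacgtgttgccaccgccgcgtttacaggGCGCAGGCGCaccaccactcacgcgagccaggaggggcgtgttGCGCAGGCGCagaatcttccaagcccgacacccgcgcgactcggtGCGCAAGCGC
Cox6a1: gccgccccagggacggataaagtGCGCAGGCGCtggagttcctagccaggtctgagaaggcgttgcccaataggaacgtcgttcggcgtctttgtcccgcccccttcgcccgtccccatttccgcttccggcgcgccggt
Atp5g2: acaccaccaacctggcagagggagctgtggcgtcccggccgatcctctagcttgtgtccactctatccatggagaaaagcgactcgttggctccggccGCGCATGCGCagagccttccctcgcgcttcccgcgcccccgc
Uqcrh: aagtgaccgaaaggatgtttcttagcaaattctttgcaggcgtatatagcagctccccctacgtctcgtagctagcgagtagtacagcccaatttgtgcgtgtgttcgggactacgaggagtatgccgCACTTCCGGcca

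In complex I, the NADH dehydrogenase, 0 of 39 nuclear subunits were higher and 5 lower with all 7 libraries (edgeR, median log2 fold change -0.17), namely Ndufs1, Ndufa9, Ndufb8, Ndufa12 and Ndufb2. Without mature replicate 3, 25 were lower and 1, Ndufb10, higher (median -0.38). Complexes were assigned by gene symbol, so the 39 include Ndufa4, now placed with complex IV, and its paralog Ndufa4l2. The lower share was thus 12.8% with all 7 libraries, below the 22.9% of all genes tested, and 64.1% without mature replicate 3, against 28.3%. Ndufs1 (ENSMUSG00000025968, chromosome 1 from 63143596 to 63176822), a core subunit with iron-sulfur clusters, had 81.7, 73.8 and 83.4 CPM in immature replicates 1 to 3 and 45.2, 52.04, 51.99 and 51.7 CPM in mature replicates 1 to 4. Its groups did not overlap, and mature replicate 3 was level with replicates 2 and 4 (immature 79.6 ± 5.11 CPM (SD, n = 3), mature 50.2 ± 3.37 CPM (SD, n = 4), log2 fold change -0.67, standard error 0.087, edgeR adjusted p = 3.0e-04). Ndufa9 (chromosome 6 from 126821721 to 126849125), an accessory subunit that stabilizes the junction of the arms of the complex, had 66.3, 69.6 and 70.5 CPM in immature replicates 1 to 3 and 37.999, 38.7, 59.4 and 47.3 CPM in mature replicates 1 to 4. All 4 mature libraries were below the immature ones, with mature replicate 3 the nearest to them (log2 fold change -0.59, standard error 0.15, edgeR adjusted p = 0.013). Ndufa12 and Ndufb2 passed the test only narrowly (adjusted p = 0.045 and 0.049, edgeR), at log2 fold changes of -0.98 and -0.59, and the calls of Ndufb8, Ndufa12 and Ndufb2 were lost when any of several single libraries was left out.

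Other core subunits of complex I show how far mature replicate 3 set these counts. Ndufv1, which binds NADH and its flavin, had 80.3, 85.2 and 85.1 CPM in immature replicates 1 to 3 and 54.3, 61.1, 80.4 and 67.7 CPM in mature replicates 1 to 4. Mature replicates 1, 2 and 4 were below all immature libraries and mature replicate 3 was within their range, giving a log2 fold change of -0.34 with an edgeR adjusted p of 0.056 and, without mature replicate 3, -0.43 with 0.0011. Without mature replicate 3, the core subunits Ndufs1 (-0.66), Ndufs8 (-0.79), Ndufs7 (-0.44), Ndufv1 (-0.43) and Ndufs3 (-0.34) were lower (edgeR), as log2 fold changes, and of these Ndufs1 alone passed the test with all 7 libraries. Ndufv2 had a log2 fold change of -0.065 without mature replicate 3 (edgeR adjusted p = 0.46). Ndufa4l2, a paralog of Ndufa4 known to be induced by hypoxia, was close to the detection limit at 0.698, 1.19 and 0.697 CPM in immature and 0.0606, 0.333, 0.492 and 0.528 CPM in mature replicates. Its groups did not overlap, but the difference did not pass the test (log2 fold change -1.28, standard error 0.64, edgeR adjusted p = 0.13).

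Complex II, succinate dehydrogenase, which belongs to both the respiratory chain and the TCA cycle, was lower in each fit. Sdha, Sdhb and Sdhc fell, 3 of 4 subunits, with a median log2 fold change of -0.51 over all 4 with all libraries and -0.54 without mature replicate 3. Sdhc (chromosome 1 from 171127165 to 171150603), a membrane anchor of the complex, had 114, 119.9 and 122 CPM in immature replicates 1 to 3 and 57.4, 64.5, 86.3 and 61.5 CPM in mature replicates 1 to 4. The mature libraries were all below the immature ones, with the highest mature value in replicate 3 (immature 119 ± 4.06 CPM (SD, n = 3), mature 67.4 ± 12.9 CPM (SD, n = 4), log2 fold change -0.81, standard error 0.14, edgeR adjusted p = 0.0013). Sdhb, the iron-sulfur subunit (chromosome 4 from 140961203 to 140979193), had 81.96, 85.3 and 79.98 CPM in immature replicates 1 to 3 and 43.7, 51.3, 62.6 and 50.1 CPM in mature replicates 1 to 4. No mature library reached the immature range (log2 fold change -0.67, standard error 0.12, edgeR adjusted p = 0.0018). Sdha, the flavoprotein that oxidizes succinate (chromosome 13 from 74322254 to 74350280), had 285, 267 and 289.9 CPM in immature replicates 1 to 3 and 203, 232, 213 and 225 CPM in mature replicates 1 to 4. Again the groups were separate, and replicate 3 was within the range of the other mature libraries (log2 fold change -0.36, standard error 0.079, edgeR adjusted p = 0.0052). These 3 calls held in each fit run, and in mature replicate 1 alone the log2 fold changes were -1.02, -0.89 and -0.45. Sdhd, the other membrane anchor, had a log2 fold change of -0.0051 (adjusted p = 0.98) and of -0.14 (adjusted p = 0.066) without mature replicate 3, both by edgeR.

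Complex III, the cytochrome bc1 complex, had 4 of 9 nuclear subunits lower and 1 higher (median log2 fold change -0.42), and 6 lower and 1 higher without mature replicate 3 (median -0.68). The lower ones with all 7 libraries were Uqcrc1, Uqcrfs1, Cyc1 and Uqcrq. Uqcrc1 (chromosome 9 from 108936633 to 108949623), a core protein on the matrix side, had 228, 232 and 239 CPM in immature replicates 1 to 3 and 133, 143, 196 and 154 CPM in mature replicates 1 to 4. The immature libraries spanned a narrow range above all mature ones (immature 233 ± 5.62 CPM (SD, n = 3), mature 156 ± 28.04 CPM (SD, n = 4), log2 fold change -0.57, standard error 0.13, edgeR adjusted p = 0.0065). Uqcrfs1, the Rieske iron-sulfur protein, had 117, 126 and 123 CPM in immature replicates 1 to 3 and 60.8, 71.4, 104 and 80.2 CPM in mature replicates 1 to 4. All mature libraries were below the immature range, with replicate 1 the lowest and replicate 3 the nearest to it (log2 fold change -0.63, standard error 0.16, edgeR adjusted p = 0.013). Cyc1, cytochrome c1, which hands electrons to cytochrome c, had 96.02, 99.03 and 99.9 CPM in immature replicates 1 to 3 and 63.9, 68.7, 85.96 and 74.6 CPM in mature replicates 1 to 4 and differed likewise without overlap (log2 fold change -0.42, standard error 0.11, edgeR adjusted p = 0.011). Uqcrb and Uqcr11 joined the lower members without mature replicate 3, at log2 fold changes of -0.90 and -0.68 (edgeR adjusted p = 2.5e-05 and 0.0015).

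Uqcrh went the other way. The gene (chromosome 4 from 116066965 to 116075034), which encodes the hinge protein at the docking site of cytochrome c, had 55.2, 65.3 and 75.8 CPM in immature replicates 1 to 3 and 120.3, 111, 227 and 119 CPM in mature replicates 1 to 4. Every mature library was above every immature one, and mature replicate 3 was far above the other mature libraries (immature 65.4 ± 10.3 CPM (SD, n = 3), mature 144 ± 55.2 CPM (SD, n = 4), log2 fold change 1.14, standard error 0.26, edgeR adjusted p = 0.0068). Without mature replicate 3 the log2 fold change was 0.86 (edgeR adjusted p = 6.0e-05) and in mature replicate 1 alone 0.90, so the rise held but fell short of a log2 fold change of 1.

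**Figure D3:**
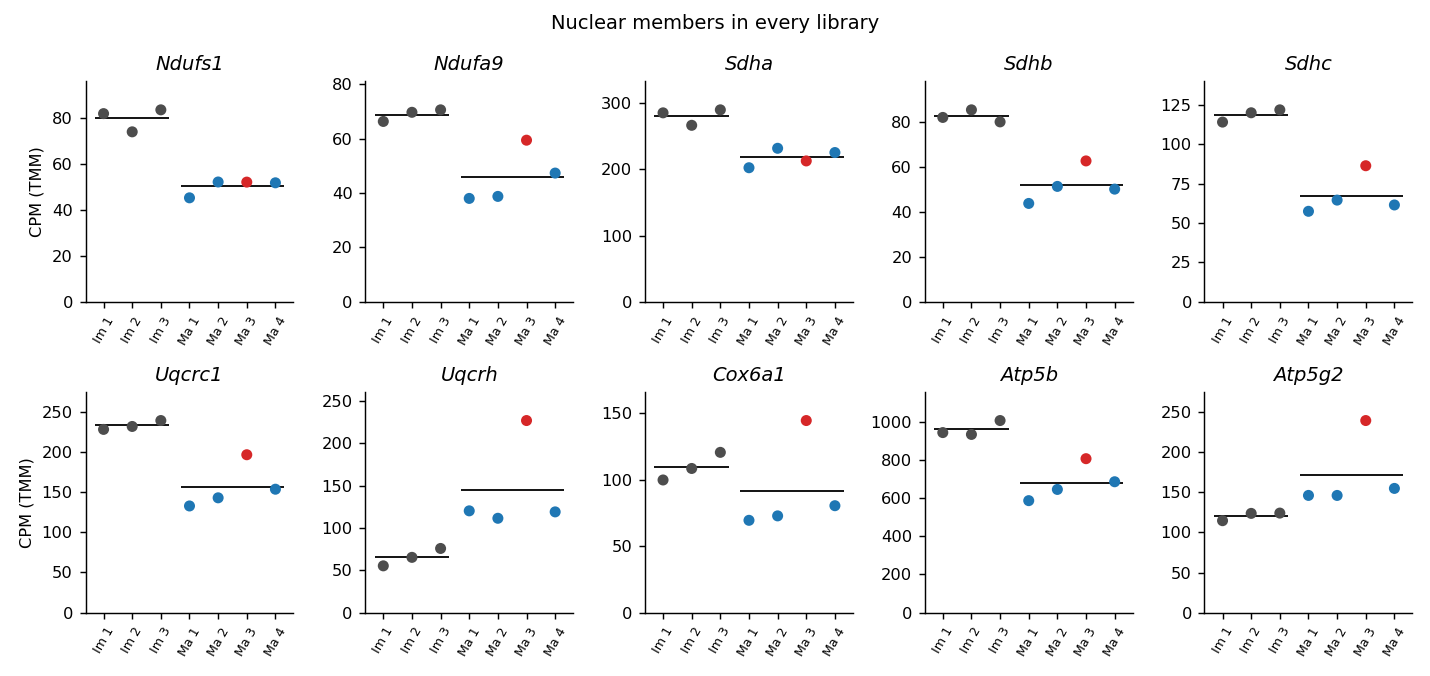
CPM after TMM normalization in each library (Im, immature; Ma, mature) for 10 nuclear members; lines are group means and mature replicate 3 is drawn in red. The groups do not overlap except for Cox6a1, where mature replicate 3 lies above and the other mature libraries below the immature ones; Uqcrh and Atp5g2 are higher in mature BMDCs and the other separated genes lower.

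Complex IV, cytochrome c oxidase, had few calls among its nuclear subunits. Of 13 tested nuclear subunits, 2 were higher and none lower with all 7 libraries (median log2 fold change 0.15), and 1 was higher and 3 lower of 12 without mature replicate 3 (median -0.11). The median thus changed sign with this library, which was the highest of all 7 for Cox4i1, Cox6a1, Cox7a2 and Cox8a. The 2 higher subunits with all 7 libraries were Cox8b and Cox6b2, which reached at most 2.38 and 2.14 CPM in any library. Without mature replicate 3, the higher subunit was Cox7a2l. Cox4i1, the ubiquitous form of the largest nuclear subunit, had 268, 302 and 322 CPM in immature replicates 1 to 3 and 258, 266, 498 and 294 CPM in mature replicates 1 to 4. Mature replicates 1, 2 and 4 lay within or below the immature range and mature replicate 3 above it, and the difference was not called (log2 fold change 0.15, standard error 0.22, edgeR adjusted p = 0.63; without mature replicate 3, log2 fold change -0.10, standard error 0.074, edgeR adjusted p = 0.28). Cox6a1 (chromosome 5 from 115345642 to 115348981), the form of subunit VIa outside heart and skeletal muscle, had 99.8, 108 and 121 CPM in immature replicates 1 to 3 and 69.4, 72.8, 145 and 80.5 CPM in mature replicates 1 to 4. The same 3 mature libraries were below all immature ones, and the log2 fold change went from -0.26 (edgeR adjusted p = 0.43) to -0.54 (adjusted p = 3.0e-04) without mature replicate 3. Cox7a2 behaved likewise, at -0.10 and -0.36 (adjusted p = 0.75 and 0.0033), and Cox5b was the third lower subunit in that fit (-0.45, adjusted p = 0.0012). Cox8a, the ubiquitous form of subunit VIII, had log2 fold changes of 0.015 and -0.19, neither of them called (adjusted p = 0.96 and 0.1, edgeR).

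Cox7a2l, which encodes a factor known to join complexes III and IV into supercomplexes, had 424, 467 and 462 CPM in immature replicates 1 to 3 and 515, 492, 818 and 555 CPM in mature replicates 1 to 4. All mature libraries were above the immature ones, and the test passed without mature replicate 3 but not with all 7 libraries (log2 fold change 0.40, standard error 0.17, edgeR adjusted p = 0.093; log2 fold change 0.23, standard error 0.061, edgeR adjusted p = 0.0096 without it), while an offset for transcript length with all 7 libraries gave an edgeR adjusted p of 0.011. Ndufa4, named as a subunit of complex I but now placed with complex IV, had 7.26, 8.77 and 9.25 CPM in immature and 6.58, 10.9, 16.8 and 11.6 CPM in mature replicates, at a log2 fold change of 0.44 (edgeR adjusted p = 0.23). Mature replicate 1 lay below the immature range and the other mature libraries above it. AA467197, the mouse Nmes1, a relative of Ndufa4 whose transcript carries miR-147 and is known to be induced in activated myeloid cells, had 588, 698 and 716 CPM in immature replicates 1 to 3 and 375, 369, 674 and 400.3 CPM in mature replicates 1 to 4. Mature replicates 1, 2 and 4 were below all immature libraries and mature replicate 3 was within their range (log2 fold change -0.55, standard error 0.21, edgeR adjusted p = 0.062; without mature replicate 3, log2 fold change -0.78, standard error 0.075, edgeR adjusted p = 1.8e-05).

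The muscle forms of complex IV varied between the mature libraries. Cox6a2 (chromosome 7 from 128205435 to 128206387), the heart and skeletal muscle form of subunit VIa, had 10.8, 11.04 and 9.99 CPM in immature replicates 1 to 3 and 1.99, 11.4, 13.1 and 11.2 CPM in mature replicates 1 to 4. Mature replicates 2, 3 and 4 were just above the immature libraries and mature replicate 1 was far below them, and the difference was not called (log2 fold change -0.17, standard error 0.50, edgeR adjusted p = 0.81). Against immature libraries, mature replicate 1 alone gave a log2 fold change of -2.39 (edgeR adjusted p = 3.1e-05), and the other mature libraries without it 0.17 (adjusted p = 0.31). Cox7a1, the muscle form of subunit VIIa, had 0.409, 0.449 and 0.527 CPM in immature replicates 1 to 3 and 0.273, 1.496, 2.16 and 1.68 CPM in mature replicates 1 to 4. Only mature replicates 2, 3 and 4, which carried the heart muscle genes, exceeded 1 CPM, and the difference was not called (log2 fold change 1.59, standard error 0.61, edgeR adjusted p = 0.063) until mature replicate 1 was left out (log2 fold change 1.94, adjusted p = 0.0015). Cox8b, the muscle form of subunit VIII, had 0.0681, 0 and 0 CPM in immature replicates 1 to 3 and 0, 1.45, 2.38 and 1.503 CPM in mature replicates 1 to 4. It was at 0 in mature replicate 1 and in 2 of 3 immature libraries (fitted log2 fold change 5.76, standard error 1.70, edgeR adjusted p = 0.022), a fitted value that depends on the prior count. Cox6b2, a form of subunit VIb known from testis, had 0.545, 0.198 and 0.728 CPM in immature and 0.849, 1.03, 2.14 and 1.34 CPM in mature replicates without overlap and passed narrowly with all libraries (log2 fold change 1.44, standard error 0.52, edgeR adjusted p = 0.049), with an adjusted p of 0.072 without mature replicate 3. The part of heart muscle RNA in other members was not tested. The median log2 ratio of the nuclear members to the immature mean, given above, was -0.37, -0.27, 0.37 and -0.21 in mature replicates 1 to 4.

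**Figure D4:**
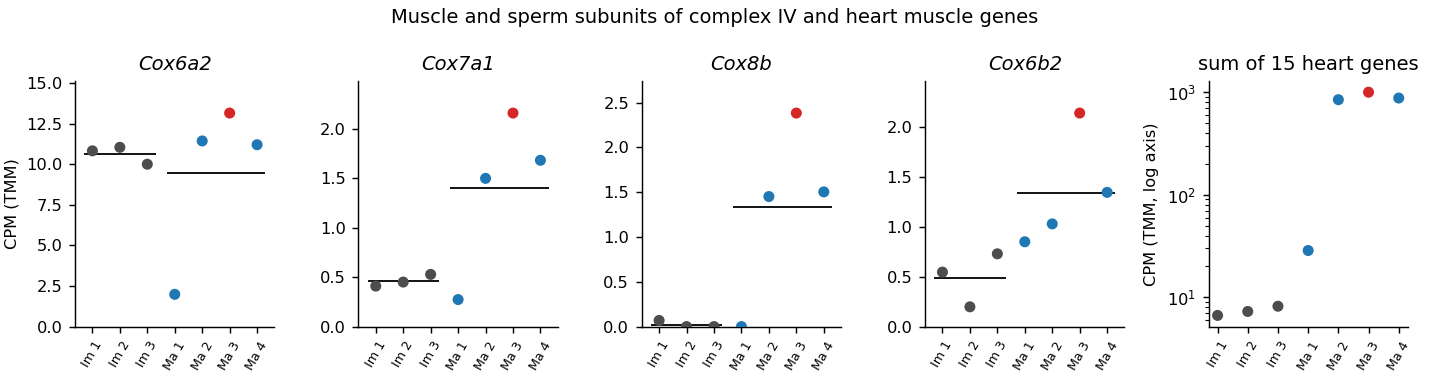
CPM after TMM normalization in each library for Cox6a2, Cox7a1, Cox8b and Cox6b2, and the sum over 15 heart muscle genes on a log axis; lines are group means and mature replicate 3 is red. Cox7a1 and Cox8b are above 1 CPM only in mature replicates 2 to 4, where the heart sum is 848 to 1004 CPM, and Cox6a2 is lowest in mature replicate 1.

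Complex V had 1 of 15 nuclear members higher and 2 lower (median log2 fold change 0.0025), and 1 higher and 6 lower without mature replicate 3 (median -0.21). The lower share was 13.3% with all 7 libraries, below the 22.9% of all genes tested, and 40% without mature replicate 3, against 28.3%. The alpha and beta subunits of the catalytic head fell, and both calls held in each alternative. Atp5b, the beta subunit with the catalytic sites (chromosome 10 from 128083273 to 128090391), had 944, 934 and 1007 CPM in immature replicates 1 to 3 and 587, 646, 807 and 686 CPM in mature replicates 1 to 4. The groups did not overlap, and the decrease passed the test (immature 962 ± 39.6 CPM (SD, n = 3), mature 681 ± 93.1 CPM (SD, n = 4), log2 fold change -0.50, standard error 0.11, edgeR adjusted p = 0.0064). Atp5a1, the alpha subunit, had 881, 908 and 893 CPM in immature replicates 1 to 3 and 573, 615, 709 and 662 CPM in mature replicates 1 to 4 and was lower as well (log2 fold change -0.48, standard error 0.089, edgeR adjusted p = 0.0023). Per kilobase of transcript, Atp5b and Atp5a1 were among the most abundant nuclear members, at 418 and 303 CPM per kb over all libraries, beside 496 CPM per kb for Cox7a2l and 412 CPM per kb for Cox4i1 of complex IV. Atp5c1, the gamma subunit that turns inside the head, had log2 fold changes of 0.039 and -0.036, not called in either fit (edgeR adjusted p = 0.81 and 0.66).

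The c subunits of the rotor ring are encoded by 3 genes for the same mature protein, and these differed. Atp5g2 (chromosome 15 from 102662864 to 102672352) had 115, 124 and 124 CPM in immature replicates 1 to 3 and 146, 146, 239.8 and 155 CPM in mature replicates 1 to 4. Each mature library exceeded each immature one, with mature replicate 3 apart from the rest (log2 fold change 0.51, standard error 0.18, edgeR adjusted p = 0.045; without it, log2 fold change 0.33, standard error 0.051, edgeR adjusted p = 4.3e-04). The call of Atp5g2 was lost without any of the immature libraries or mature replicate 4 (adjusted p up to 0.13). Atp5g3, with 126, 139.7 and 147 CPM in immature and 86.3, 95.1, 147 and 98.9 CPM in mature replicates, had a log2 fold change of -0.37 (adjusted p = 0.12) and of -0.53 without mature replicate 3 (adjusted p = 1.4e-04), both by edgeR, and Atp5g1 had -0.22 and -0.28 (adjusted p = 0.26 and 0.071). The difference between the 3 genes was not tested, and reads could be split between them where their coding sequences are alike.

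Of the mitochondrially encoded members, 5 rose and none fell. All 13 had a positive log2 fold change with all 7 libraries, from 0.047 for mt-Co1 to 0.74 for mt-Nd6, and under each of 3 other scalings, while the transcript length offset turned mt-Atp8 to -0.26 and mt-Nd4l to -0.10. In 7 of 13, every mature library was above every immature one, where 25.4% of all genes tested showed this, and in none was every mature library below, against 26.7%. Their share of all counts was 3.85% to 4.24% in immature libraries and 4.68%, 5.27%, 4.79% and 5.13% in mature replicates 1 to 4. Libraries were made from poly(A)-selected RNA, and how far poly(A) capture of these short-tailed transcripts varied between libraries was not measured.

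Among the subunits of complex I, mt-Nd4 (chromosome MT from 10167 to 11544) had 2335, 2105 and 2286 CPM in immature replicates 1 to 3 and 2743, 3159, 2972 and 3088 CPM in mature replicates 1 to 4. The mature libraries were all higher, mature replicate 1 least so (log2 fold change 0.42, standard error 0.085, edgeR adjusted p = 0.004). For mt-Nd5 the mature libraries were also all higher, mature replicate 3 least so, with 3263, 2546 and 2801 CPM in immature replicates 1 to 3 and 3723, 4204, 3442 and 4139.7 CPM in mature replicates 1 to 4 (log2 fold change 0.43, standard error 0.12, edgeR adjusted p = 0.014). The light-strand gene mt-Nd6 had 664, 597 and 597 CPM in immature replicates 1 to 3 and 804, 908, 1554 and 863 CPM in mature replicates 1 to 4. Mature replicate 3 was far above the rest, yet the others were also above the immature libraries (log2 fold change 0.74, standard error 0.22, edgeR adjusted p = 0.025; log2 fold change 0.49, standard error 0.065, edgeR adjusted p = 1.4e-04 without mature replicate 3). Since mt-Nd6 lies antisense to the other transcripts and the strand setting of the counting is not given in the sources used here, its reads may include those of the opposite strand. The log2 fold changes of mt-Nd1, mt-Nd2, mt-Nd3 and mt-Nd4l were 0.19, 0.25, 0.29 and 0.13 and were not called (edgeR adjusted p = 0.17, 0.098, 0.2 and 0.68). For mt-Nd4l, the mature values were 330, 390, 187 and 384 CPM, with the lowest in mature replicate 3, and without it the difference passed (log2 fold change 0.35, standard error 0.10, edgeR adjusted p = 0.013).

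In the other complexes, mt-Cytb, cytochrome b of complex III, had 3018, 2791 and 2973 CPM in immature replicates 1 to 3 and 3174, 3821, 3923 and 3717 CPM in mature replicates 1 to 4 with no overlap (log2 fold change 0.32, standard error 0.10, edgeR adjusted p = 0.023). mt-Co1, the catalytic subunit of complex IV, was the most abundant member at 14151 CPM per kb and was not called, with 22622, 20031 and 21722 CPM in immature replicates 1 to 3 and 21115, 22975, 20968 and 23608 CPM in mature replicates 1 to 4 (log2 fold change 0.047, standard error 0.089, edgeR adjusted p = 0.7). mt-Co2 and mt-Co3 had log2 fold changes of 0.36 and 0.32 (edgeR adjusted p = 0.061 and 0.033), and both passed without mature replicate 3 (adjusted p = 0.0037 and 0.0044). Of the complex V genes, mt-Atp6 had 0.24 and mt-Atp8, which overlaps it, 0.049 (adjusted p = 0.11 and 0.74). The calls were sensitive to the immature libraries: without immature replicates 1, 2 and 3 in turn, 2, 1 and 1 of the 13 passed, against 5 with all libraries. In mature replicate 1 alone, with little heart muscle RNA apart from Tnni3, 5 were higher and none lower, at a median log2 fold change of 0.14 against 0.29 with all libraries. The median log2 ratios given above were larger in mature replicates 2 to 4, which carried the heart muscle genes, than in mature replicate 1, although mature replicate 3 was below mature replicate 1 for mt-Nd5, mt-Nd4l, mt-Co1 and mt-Atp8. The part of heart muscle RNA in these values was not tested.

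**Figure D5:**
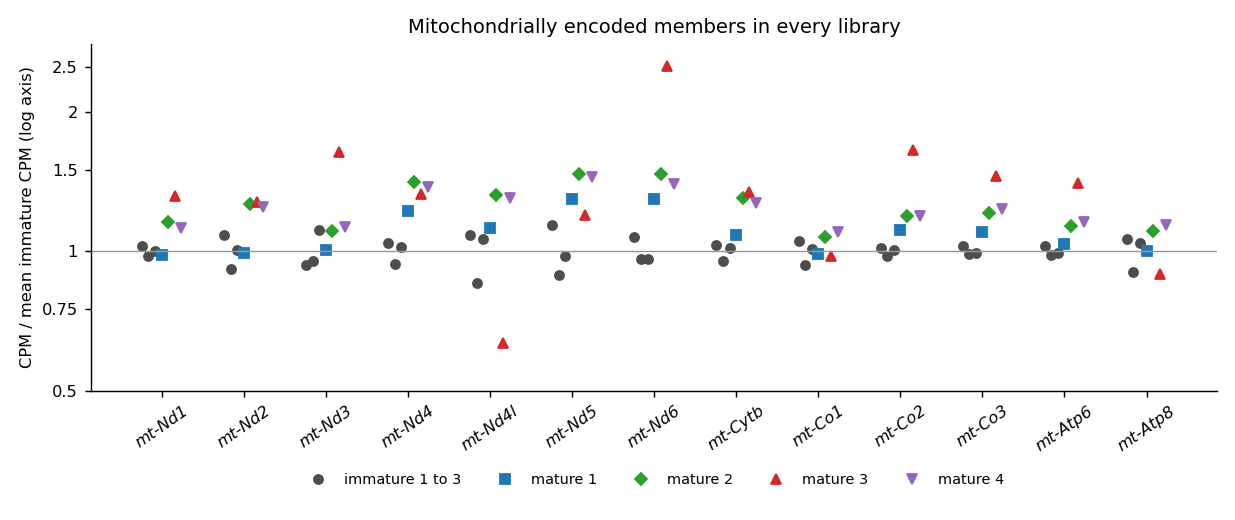
CPM of each of the 13 mitochondrially encoded members divided by the mean of the immature libraries, on a log axis, with one symbol per library. For mt-Nd4, mt-Nd5, mt-Nd6, mt-Cytb, mt-Co2, mt-Co3 and mt-Atp6 all mature libraries lie above all immature ones; mature replicate 3 is the highest for mt-Nd6 and the lowest for mt-Nd4l.

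The remaining members lie outside the complexes. Lhpp, a phosphatase of phosphohistidine, had 9.63, 8.82 and 8.96 CPM in immature and 12.96, 13.3, 19.03 and 15.3 CPM in mature replicates and was higher in mature cells (log2 fold change 0.73, standard error 0.15, edgeR adjusted p = 0.0046). The pyrophosphatases Ppa1, of the cytosol, and Ppa2, of mitochondria, were not called, at log2 fold changes of -0.21 and 0.0055 (edgeR adjusted p = 0.16 and 0.98). Atp4a, the alpha subunit of the gastric proton pump and no part of the respiratory chain, had 0 counts in all immature libraries and 27, 21, 6 and 13 counts in mature replicates 1 to 4. Against a floor of 3 counts per immature library, scaled by library totals without TMM, the mature mean in CPM was 5.41-fold higher. The TMM factors of the immature libraries were 0.95 to 0.97, so the bound with TMM on both sides is somewhat lower. The beta subunit of that pump, Atp4b, was at 0 in all libraries. Among the 4 assembly factors of complex IV that KEGG lists, Cox17, a copper chaperone, was higher (log2 fold change 0.99, standard error 0.20, edgeR adjusted p = 0.0033), and Cox10 and Cox15, which make heme a, were lower (-0.72 and -0.27, adjusted p = 0.0011 and 0.043). The call of Cox15 was lost in most fits that left out a library, while Cox10 and Cox17 held in each.

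Factors that assemble the complexes, mostly outside the KEGG entry, were compared as lists, to be read against the shares of all genes tested, 23.2% higher and 22.9% lower with all 7 libraries and 29.1% and 28.3% without mature replicate 3. Of 14 complex I assembly factors, 4 were lower, near that background, and none higher (median log2 fold change -0.18), and 6 were lower without mature replicate 3. Complex II assembly had 2 of 4 higher and none lower, opposite in direction to the subunits. Sdhaf1, which aids the insertion of iron-sulfur clusters into Sdhb, had 14.9, 16.8 and 15.5 CPM in immature replicates 1 to 3 and 32.5, 31.98, 55.03 and 32.6 CPM in mature replicates 1 to 4 with all mature libraries well above the immature ones (log2 fold change 1.27, standard error 0.21, edgeR adjusted p = 0.0011). Sdhaf2, which attaches the flavin to Sdha, rose too (log2 fold change 0.83, standard error 0.088, edgeR adjusted p = 8.5e-05). Of 22 tested complex IV factors, the 3 KEGG-listed calls above included, 4 were higher and 6 lower, with 4 and 9 without mature replicate 3. Cmc2, a small protein needed for complex IV, had 12.2, 14.3 and 14.3 CPM in immature replicates 1 to 3 and 80.98, 76.6, 134 and 71.3 CPM in mature replicates 1 to 4. It rose in every mature library (immature 13.6 ± 1.21 CPM (SD, n = 3), mature 90.6 ± 28.9 CPM (SD, n = 4), log2 fold change 2.73, standard error 0.23, edgeR adjusted p = 2.3e-05), the largest change among the called assembly factors. Complex III assembly had 0 of 6 higher and 1 lower, Uqcc2 (-0.73, adjusted p = 0.0083), and the list of complex V factors had 3 of 5 higher and 1 lower, the higher ones including Atpif1, the inhibitor of the ATP synthase (0.60, adjusted p = 0.047).

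Among the electron carriers, lower genes were more frequent than higher ones. Of 17 genes of cytochrome c, electron transfer flavoproteins and coenzyme Q synthesis, 9 were lower and 1 higher (median log2 fold change -0.37), with 11 and 2 without mature replicate 3. Of all genes tested, 22.9% were lower and 23.2% higher with all 7 libraries, and 28.3% and 29.1% without mature replicate 3. Cycs, which encodes cytochrome c, had 74.3, 79.9 and 79.2 CPM in immature replicates 1 to 3 and 28.3, 38.4, 45.1 and 41.6 CPM in mature replicates 1 to 4. Its mature levels were all far below the immature ones (immature 77.8 ± 3.03 CPM (SD, n = 3), mature 38.4 ± 7.23 CPM (SD, n = 4), log2 fold change -1.02, standard error 0.15, edgeR adjusted p = 5.2e-04). The exception was Coq8a, an atypical kinase needed for coenzyme Q synthesis, with 9.27, 12.04 and 11.5 CPM in immature and 26.6, 36.4, 41.4 and 36.6 CPM in mature replicates (log2 fold change 1.69, standard error 0.17, edgeR adjusted p = 6.1e-05).

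Of 14 regulators of mitochondrial genes, 2 were higher and 4 lower, where 23.2% and 22.9% of all genes tested were, so that these counts do not set the list apart. Ppargc1b, a coactivator of respiratory genes, had 16.3, 16.2 and 14.5 CPM in immature replicates 1 to 3 and 3.58, 6.45, 3.57 and 3.71 CPM in mature replicates 1 to 4. It fell in all mature libraries, least in mature replicate 2 (log2 fold change -1.86, standard error 0.23, edgeR adjusted p = 1.9e-04). Its relative Ppargc1a had 0.0681, 0 and 0 CPM in immature and 0.243, 2.18, 2.27 and 1.39 CPM in mature replicates, rising (fitted log2 fold change 5.95, standard error 1.18, edgeR adjusted p = 0.0034) in the libraries that carried the heart muscle genes; in mature replicate 1 alone the adjusted p was 0.23 (edgeR). Nrf1 was lower (log2 fold change -0.37, standard error 0.10, edgeR adjusted p = 0.014), with an adjusted p of 0.06 without immature replicate 1, and Tfam, the packaging and transcription factor of mitochondrial DNA, was not called (log2 fold change -0.065, standard error 0.10, edgeR adjusted p = 0.64).

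Most genes of the pathways that feed the chain were lower. Among all genes tested, for comparison with the lists here, 22.9% were lower and 23.2% higher with all 7 libraries, and 28.3% and 29.1% without mature replicate 3. In the TCA cycle, 11 of 16 genes were lower and none higher (median log2 fold change -0.40), with 12 lower without mature replicate 3, among them Mdh2 (-0.73), Dlat (-0.64) and Ogdh (-0.58). In glycolysis, 15 of 19 gene entries were lower and 2 higher (median -0.72), in both fits. Past both criteria were the glucose transporter gene Slc2a1 (-1.58), the hexokinases Hk2 (-1.79) and Hk3 (-1.58), Pfkl (-1.02), Pgam1 (-1.67), Eno1 (-1.37) and Pkm (-1.05), all lower. Hk2, for one, had 141, 128 and 140.2 CPM in immature and 35.5, 38.7, 36.5 and 47.5 CPM in mature replicates (log2 fold change -1.79, standard error 0.11, edgeR adjusted p = 4.0e-06). Pfkfb3, which makes the activator of phosphofructokinase, was higher, with 60.2, 54.8 and 61.8 CPM in immature and 175, 164, 114 and 157 CPM in mature replicates (log2 fold change 1.37, standard error 0.15, edgeR adjusted p = 8.9e-05). Of 5 genes of myeloid activation with a link to mitochondria, Nos2, a source of nitric oxide, which inhibits complex IV, was higher (log2 fold change 0.83, standard error 0.22, edgeR adjusted p = 0.013), while Sod2 and Ucp2 were lower (-0.44 and -0.74, adjusted p = 0.034 and 1.5e-04). AA467197, described above, and Acod1 were not called with all 7 libraries. Nos2 was at 32.1 CPM in mature replicate 1, within the immature range of 26.3 to 33.7 CPM, and at 54.4 to 60.4 CPM in the other mature libraries.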

How the data were processed

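The data were RNA-seq of flow-sorted immature (3) and mature (4) BMDCs, grouped by the sample labels. Whole numbers of reads per gene (counts) were deposited without normalization, which were used for all tests, together with FPKM (fragments scaled for gene length and depth). The submitters' processing notes name cutadapt 1.9, HISAT2 2.2.1, StringTie 2.1.6, DESeq2 and edgeR without roles, and the mm9 build. The start and end of 25842 of 28588 genes shared with GENCODE M21 are nonetheless those of GRCm38, the build of the coordinates given. The strand setting of the counting is not given in the sources used here. The table's columns of fold changes and p values hold the authors' own comparison and were not used.

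Genes were filtered with edgeR 4.0.16 (filterByExpr; R 4.3.3), libraries were normalized by TMM, and the quasi-likelihood test was run on the 17461 genes kept, of which 9237 had an unadjusted p under 0.05. Adjustment (Benjamini-Hochberg) ran over all genes tested. Standard errors of log2 fold changes were derived from the F statistic as |log2 fold change| / sqrt(F). Levels were compared between genes as CPM per kb of the principal transcript, since the deposited FPKM use the length of all exons joined. Medians per library used log2(CPM + 0.5).

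The alternatives were DESeq2 1.42.0, RLE size factors, library totals, no mitochondrially encoded and heart muscle genes, other filters, limma 3.58.1 on log2(FPKM + 1) and log2(FPKM + 0.1), an offset for the trend on transcript length (lowess span 0.3), each library left out, mature replicate 1 alone and the replicate number as a block. The length offset without mature replicate 3 was added after the data were seen. On simulated counts the edgeR fit recovered 63 of 66 genes changed 4-fold, 50 of 67 changed 2-fold and 34 of 67 changed 1.5-fold, with 8 false calls among 17459 genes. The simulation gave all genes the same dispersion, with no heart muscle RNA and no library apart in short transcripts, so recovery in these data may differ. Depth was 54846746 to 67973086 counts per library, and floors of 3 counts cover counting error only.

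The members, gene lists and tests were chosen with earlier results of these data known. Genes named are, in each complex, the 3 with the smallest p among those reaching a mean of 10 CPM in the higher group and the one with the highest mean FPKM, all mitochondrially encoded members, those past both criteria, muscle forms and their relatives, core subunits (not every one is reported here) and pyrophosphatases, and genes of each list past both criteria with Cycs, Tfam, Nrf1, Ppargc1a and Ppargc1b. Others, such as Ndufb8, Uqcrq, Lhpp and Mdh2, were named after their values were seen. Marker lists of skeletal muscle, neutrophils, epithelial tumor cells and T, B and NK cells reached summed levels of at most 14.0, 3.02, 77.3 and 5.58 CPM in any library. Tables were joined in Python 3.11.15 (pandas 2.3.3; numpy 2.4.6), and matplotlib 3.10.9 drew the figures.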

Additional observations from a re-analysis of the deposited data

Results flagged for a closer look

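Of 71 values checked over the 4 mature libraries, 18 had one library whose gap to the nearest other, divided by the range, exceeded the critical value of Dixon's test for 4 samples, where chance flags about 1 in 20 (3.55 of 71). The values come from the same 4 libraries and some share genes, so they are not independent and the number given for chance is only a guide. In 14 of the 18, the library was mature replicate 3. It was the highest for the nuclear members Atp5g2 (ratio 0.906), Cox4i1 (0.852), Cox6a1 (0.853), Cox7a2 (0.877), Cox8a (0.863) and Uqcrh (0.924), and for the medians over nuclear complex IV (0.909) and complex V (0.833). The same library was the highest for the mitochondrially encoded mt-Co2 (0.853) and mt-Nd6 (0.860), for AA467197 (0.899), Cmc2 (0.845) and Sdhaf1 (0.972), and for the sum of all FPKM values (0.839). Mature replicate 1 was the lowest for Ndufs1 (0.949), mt-Nd2 (0.895) and the summed heart muscle genes (0.841). Mature replicate 2 was the highest for Ppargc1b (0.953).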

How the results depend on the processing

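The count of lower members depended on mature replicate 3 and on transcript length. It was 16 with all libraries, 32 with the length offset, 31 with both the length offset and a block for the replicate number, 44 in mature replicate 1 alone and 51 with the length offset without mature replicate 3, and 11 to 45 when single libraries were dropped. The count of higher members, 12, was 7 without mitochondrially encoded and heart muscle genes, since the 5 mitochondrially encoded ones were then not in the fit, and 5 to 16 with each library left out. The count past both criteria, 4, was 2 with limma on log2(FPKM + 1), 7 in mature replicate 1 alone and 2 to 4 with each library left out. Apart from the fits with the replicate number as a block, given below, the other alternatives kept these counts within 1.5 times. The median log2 fold change of all members, -0.0066 with all libraries, was -0.22 without mature replicate 3 and -0.30 in mature replicate 1 alone. These moves were smaller than the SD of the members' median log2 ratio over the 4 mature libraries (0.31). That SD includes mature replicate 3, so it cannot show that the median was stable. Causes were not tested, other than that some of the alternatives drop libraries or genes by construction.

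The sample labels do not say whether replicate numbers pair the samples. Deviations from the group means had correlations of 0.029, -0.0011 and 0.014 between same-numbered immature and mature libraries. With so few libraries, and with mature replicate 3 apart, these values cannot decide whether samples were paired. Using the replicate number as a block, 6 members were higher and 14 lower, and 7 were higher with the length offset added.

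Of 58 single genes tested, 26 kept their direction and side of the threshold in each alternative, and none of the 35 called with all libraries changed sign. Signs changed for 13 uncalled genes, given here as log2 fold changes. With the length offset these were Cox4i1 (-0.026), Cox8a (-0.22), Ppa2 (-0.039), mt-Atp8 (-0.26) and mt-Nd4l (-0.10). The block changed mt-Atp8 (-0.0016) and mt-Nd4l (-0.021), and with the length offset also Cox4i1 (-0.026), Cox8a (-0.20), Ppa2 (-0.0028) and mt-Co1 (-0.014), with mt-Atp8 at -0.36 and mt-Nd4l at -0.32. In mature replicate 1 alone they were Cox4i1 (-0.18), Cox7a1 (-0.73), Cox8a (-0.14), Ndufa4 (-0.33), Ppa2 (-0.14) and mt-Nd1 (-0.0028). The length offset without mature replicate 3 turned Cox4i1 (-0.15), Cox8a (-0.30, called), Ppa2 (-0.071), mt-Atp8 (-0.11) and mt-Nd3 (-0.032). Sdhd became 0.016 with DESeq2, 0.016 with RLE size factors, 0.091 with library totals, 0.011 with no filter, 0.035 with the FPKM filter and 0.080 and 0.081 with limma at the larger and the smaller pseudocount. Tfam became 0.037 with library totals and 0.033 and 0.039 with limma. With each library left out, ranges were -0.10 to 0.24 for Cox4i1, -0.35 to 0.17 for Cox6a2, -0.19 to 0.12 for Cox8a, -0.11 to 0.072 for Ppa2, -0.14 to 0.066 for Sdhd, -0.024 to 0.14 for mt-Atp8 and -0.0031 to 0.10 for mt-Co1. Depth limited the genes near the floor, Atp4a, Cox8b, Cox6b2 and Ndufa4l2.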
